A study of Mus musculus with 201 samples.

Results

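Aminoacyl-tRNA synthetases are the enzymes that join each amino acid to its transfer RNA (tRNA). They were measured here in mouse hippocampus on Affymetrix M430 2.0 arrays as every probe set annotated with 1 gene symbol of a tRNA synthetase. The rule gave 72 probe sets of 35 genes, out of 45037 probe sets and 18193 gene symbols. Of these genes, 19 encode cytosolic enzymes (40 probe sets) and 16 encode mitochondrial enzymes (32 probe sets). A single probe set stood for 12 genes, and 23 genes had 2 or more. A gene is described below through its probe set with the highest mean unless another is named.

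The series holds 201 arrays from 100 strains, each array made from the pooled whole hippocampi of 1 to 4 mice of the same strain. The main panel was the BXD recombinant inbred strains, which descend from C57BL/6J and DBA/2J and carry at each locus the allele of either parent: 134 arrays of 68 strains, 29 of them from the earlier set (BXD1 to BXD42) and 39 from the later set (BXD43 and above). Per the labels, some lines of the later set were not yet fully inbred, and dissections may include variable amounts of subiculum and fimbria. The other arrays came from 13 CXB recombinant inbred strains (27 arrays, bred from C57BL/6ByJ and BALB/cByJ), 4 wild-derived strains (CAST/EiJ, PWD/PhJ, PWK/PhJ and WSB/EiJ, 7 arrays), 13 classical inbred strains including DBA/2J and C57BL/6J (27 arrays), and both F1 crosses of those parents, B6D2F1 and D2B6F1 (6 arrays). No treatment is compared: the groups differ in strain and sex, and the panels also differ in age, batch and source of mice. CXB mice were 41 to 80 days old (median 54) in 4 batches, and BXD mice 54 to 196 days (median 61) in 7 batches. Mice were 41 to 196 days old (median 62), with 101 female and 99 male arrays and 1 array of both sexes.

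Values are scores of the position-dependent nearest-neighbour (PDNN) model as the authors deposited them, on a scale that behaves like a logarithm but whose base was not stated, so differences are given in PDNN units and not as folds. Every array had a mean between 8.064 and 8.1. The labels give 43.3% to 55.3% of probe sets called present per array. In 7 arrays the header of the deposited table disagreed with the labels in strain, sex or batch, and the synthetases called below in the BXD panel and in wild-derived strains kept their calls without those arrays. The tissue label fitted its markers: all 10 hippocampal neuron markers lay above the 70th percentile of probe sets, from Prox1, a granule cell factor, at 8.283 PDNN units to Neurod6, a pyramidal neuron factor, at 10.3. Among the synthetases, 51 of 72 probe sets and 30 of 35 genes had a mean of 8 PDNN units or more, against 41.854% of all probe sets. Because the samples were bulk tissue, fewer cells of a type and less RNA per cell cannot be told apart.

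Cytosolic synthetases charge the tRNAs read by ribosomes in the cytoplasm, and several of them are held in a complex by the scaffold proteins Aimp1, Aimp2 and Eef1e1. Mitochondrial synthetases are encoded in the nucleus and serve translation of the few proteins made in the organelle; Gars and Kars supply both compartments. When charged tRNA runs short, the kinase GCN2 favours translation of ATF4, a transcription factor that acts through amino acid response elements and induces amino acid transporters, biosynthetic enzymes and many cytosolic synthetases. In BXD mice the distal part of chromosome 1 is known as a region that affects many brain transcripts, synthetases among them. Kcnj9, a gene of that region that encodes a potassium channel subunit, was used here as the marker of it, through 1 of its 4 probe sets, the one used before on these data.

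RefSeq promoter windows (GRCm38.p6), from 250 bases before to 50 bases after the gene start, were matched by symbol for 26 of the 35 genes, 12 cytosolic and 14 mitochondrial. Cars, Wars and Rars were among the genes without a window and were not searched. The core TGATGNAA of amino acid response elements, searched on both strands, occurred in 5 of the 12 cytosolic windows (41.7%: Aars, Gars, Iars, Tars and Yars) and in 0 of the 14 mitochondrial windows, against 4.06% of 27025 windows, the first of each gene. The stricter TGATGCAA, which every match to it shares with the first motif, occurred in 4 of 12 (Aars, Iars, Tars and Yars), against 0.929% of all windows. A match describes these letters and is no binding site. Of the 4 windows printed, those of Yars, Gars and Iars belong to synthetases whose levels are set against the chromosome 1 marker below, and Tars is the contrast, a gene with the same letters and a slope near 0. Capitals mark the match to TGATGNAA, which lies on the reverse strand in Gars, Iars and Tars.
Yars, tyrosyl-tRNA synthetase, chr4:129189653-129189952, plus strand: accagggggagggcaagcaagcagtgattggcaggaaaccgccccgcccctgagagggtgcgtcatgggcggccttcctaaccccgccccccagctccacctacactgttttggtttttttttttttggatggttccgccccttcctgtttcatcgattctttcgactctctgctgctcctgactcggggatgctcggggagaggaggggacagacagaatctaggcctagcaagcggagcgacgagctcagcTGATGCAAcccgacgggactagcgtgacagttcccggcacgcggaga
Gars, glycyl-tRNA synthetase, chr6:55037751-55038050, plus strand: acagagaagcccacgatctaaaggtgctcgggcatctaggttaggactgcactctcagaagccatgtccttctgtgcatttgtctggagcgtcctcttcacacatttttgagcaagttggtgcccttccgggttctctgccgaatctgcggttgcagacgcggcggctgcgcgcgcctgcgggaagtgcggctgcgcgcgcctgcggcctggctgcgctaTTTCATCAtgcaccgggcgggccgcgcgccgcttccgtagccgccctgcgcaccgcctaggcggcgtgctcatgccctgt
Iars, isoleucyl-tRNA synthetase, chr13:49681880-49682179, plus strand: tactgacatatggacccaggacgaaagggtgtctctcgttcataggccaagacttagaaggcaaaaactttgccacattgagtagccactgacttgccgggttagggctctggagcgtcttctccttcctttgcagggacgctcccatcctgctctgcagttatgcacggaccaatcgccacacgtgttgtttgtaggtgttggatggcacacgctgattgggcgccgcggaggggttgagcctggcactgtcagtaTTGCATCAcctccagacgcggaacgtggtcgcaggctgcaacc
Tars, threonyl-tRNA synthetase, chr15:11399609-11399908, minus strand: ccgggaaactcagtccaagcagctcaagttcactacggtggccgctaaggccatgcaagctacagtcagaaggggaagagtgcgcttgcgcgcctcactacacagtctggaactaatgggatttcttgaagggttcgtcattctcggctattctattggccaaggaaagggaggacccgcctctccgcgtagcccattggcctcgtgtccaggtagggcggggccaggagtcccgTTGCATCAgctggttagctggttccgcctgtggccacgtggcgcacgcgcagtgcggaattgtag

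The first comparison asked whether synthetase levels follow the chromosome 1 marker across BXD strains. Yars and Cars, the tyrosyl and cysteinyl enzymes of the cytosol, fell as Kcnj9 rose, and no synthetase rose. The Kcnj9 strain value was lowest in BXD66 at 8.179, had a median of 8.534 and was highest in BXD48 at 9.058 PDNN units. A strain value is the mean of a strain's arrays after terms for sex and batch were fitted.

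Yars ranged from 8.363 in BXD31, with a median of 8.491, to 8.686 PDNN units in BXD79. Its slope was -0.1398 ± 0.0353 PDNN units per unit of Kcnj9 (SE, n = 68 strains, limma, adjusted p = 0.0352). At the ends, Yars stood at 8.504 in BXD48 and 8.432 in BXD99, the strains of highest Kcnj9, and at 8.479 in BXD66 and 8.571 in BXD13, the strains of lowest Kcnj9. The values at both ends overlap. Over the 0.879 units that Kcnj9 spans, the fitted change in Yars was -0.123.

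Cars was lowest in BXD11 at 7.924, had a median of 8.172 and was highest in BXD12 at 8.368 PDNN units. BXD11 lay 0.128 below the next strain. The slope of Cars was -0.1571 ± 0.0404 (SE, n = 68, limma, adjusted p = 0.0413), a fitted change of -0.138 over the span of Kcnj9. Its dimmer probe set had a slope of -0.0439 that did not pass, and correlated with the brighter one at r = 0.272 over strain values.

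**Figure D1:**
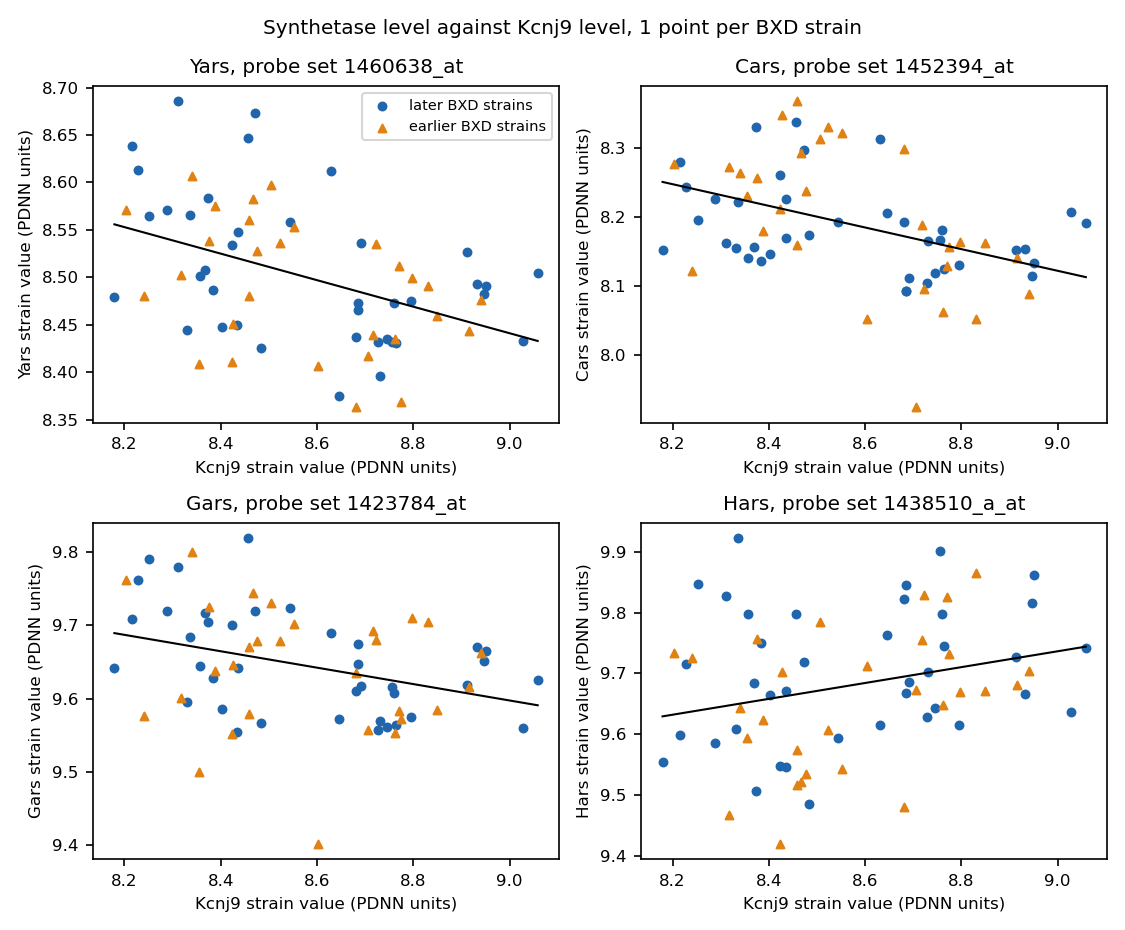
Strain values of Yars, Cars, Gars and Hars (PDNN units, vertical axes) against the strain value of Kcnj9 (PDNN units, horizontal axes), 1 point for each of 68 BXD strains, with later strains as circles, earlier strains as triangles and a least-squares line. Yars and Cars slope down (-0.1398 and -0.1571), Gars slopes down without passing the test (-0.112), and Hars slopes up without passing (0.1304).

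These 2 calls among 72 probe sets stand beside 280 calls among 45036 probe sets (0.622%), of which 116 were lower (0.258%). At an unadjusted p under 0.05, 9 synthetase probe sets were lower and 3 higher, against 4.26% lower and 4.79% higher (9.05% in all) among all probe sets. By gene, 13 of 19 cytosolic synthetases had a slope below 0 (median -0.026) and 9 of 16 mitochondrial ones (median -0.006), against 51.5% of 18192 genes (median -0.001).

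Besides the called pair, 5 cytosolic enzymes had a negative slope at an unadjusted p under 0.05, none of which passed adjustment. These were Gars at -0.112 ± 0.0386, Iars at -0.1104 ± 0.0437, Nars, the asparaginyl enzyme, at -0.091 ± 0.0412, Mars1, the methionyl enzyme, at -0.0802 ± 0.0362, and Rars, the arginyl enzyme, at -0.0738 ± 0.0279 (adjusted p from limma 0.214 to 0.464). The second probe sets of Iars and Nars had slopes of -0.1178 and -0.0971, close to those of the first. Sars (-0.0573), Kars (-0.0446), Eprs (-0.0258), Lars (-0.0257), Aars (-0.0241) and Farsb (-0.0092) lay below 0 within 2 standard errors. Vars (0.0005), Wars (0.0005), Tars (0.0017), Farsa (0.0108) and Qars (0.0128) lay near 0. Eprs and Farsb, like the mitochondrial Iars2 and Mars2, lie on chromosome 1 themselves.

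Hars, the histidyl enzyme, stood apart from the other cytosolic members with a slope of 0.1304 ± 0.0577 (limma, unadjusted p = 0.0271, adjusted p = 0.445). Its strain values ran from 9.420 in BXD42 through a median of 9.676 to 9.923 in BXD76. The second Hars probe set had a slope of 0.0923 (unadjusted p = 0.0162), in the same direction.

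None of the 16 mitochondrial genes reached an unadjusted p of 0.05 at its brightest probe set. Their slopes ran from -0.0666 for Sars2 and -0.0642 for Iars2, through Fars2 (-0.0353), Pars2 (-0.0309), Wars2 (-0.0249), Lars2 (-0.0211), Mars2 (-0.0193), Ears2 (-0.0080) and Nars2 (-0.0041), to Yars2 (0.0180), Vars2 (0.0232), Cars2 (0.0235), Aars2 (0.0254), Tars2 (0.0276), Rars2 (0.0450) and Hars2 (0.0502). A dimmer Hars2 probe set had an unadjusted p of 0.0459 with a slope of 0.0350. Whether cytosolic and mitochondrial slopes differ was not tested.

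**Figure D2:**
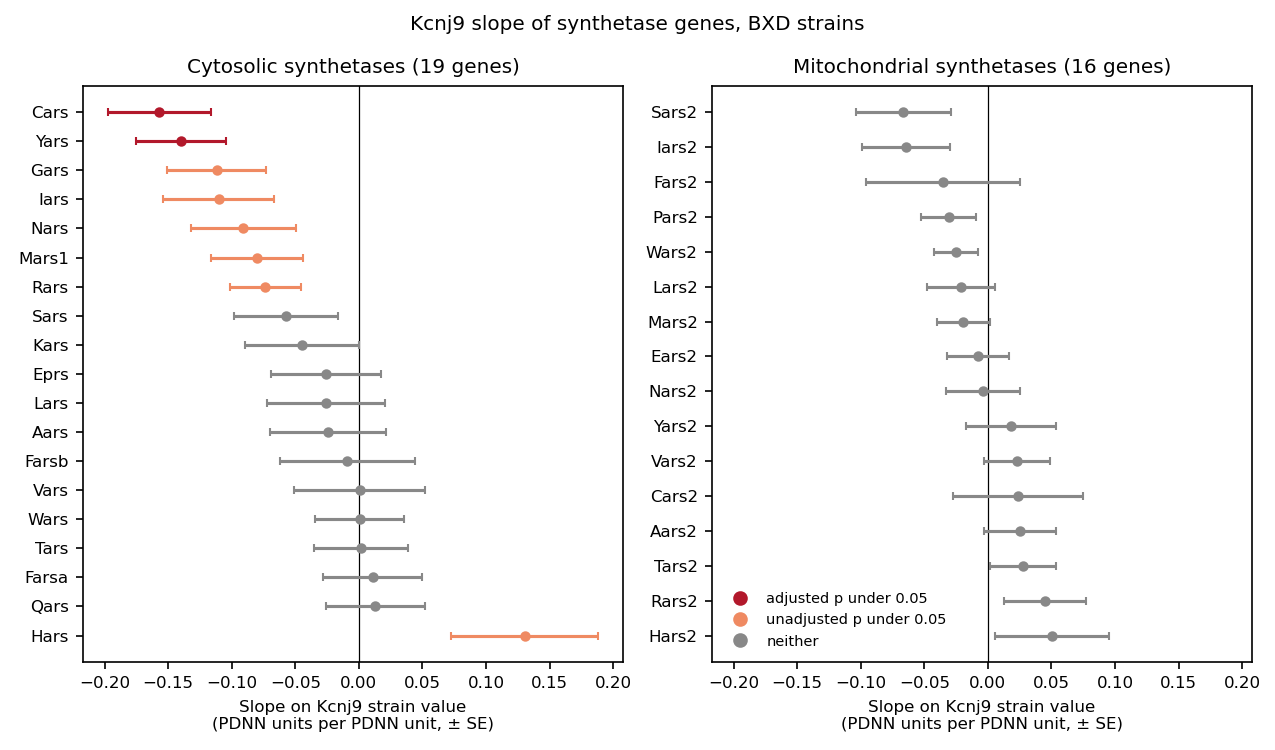
Slope of each synthetase gene on the Kcnj9 strain value over 68 BXD strains (horizontal axis, PDNN units per PDNN unit, bars ± SE), for 19 cytosolic genes in the left panel and 16 mitochondrial genes in the right panel. Cars and Yars pass the adjusted threshold, 6 further cytosolic genes pass only unadjusted, 1 of them (Hars) above 0, and no mitochondrial gene does.

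The cytosolic members also varied together across strains. The median correlation between cytosolic genes was r = 0.419 over strain values (171 pairs, 68 strains), against -0.025 between mitochondrial genes (120 pairs) and 0.104 between the compartments. Gars with Mars1 (r = 0.855), Iars with Mars1 (0.820), Iars with Nars (0.819) and Yars with Nars (0.811) were among the closest pairs of the 8 genes compared. Cars followed less closely, at 0.487 with Yars, and Hars had r = 0.052 with Yars and -0.339 with Cars. The arrays share strain, batch and overall signal. Between arrays of the same strain the cytosolic median was 0.416, so correlations were about as strong within strains as over strain values. The strain values carry within-strain variation too, since 63 of 68 strains had 2 arrays. Within strains Hars correlated with Gars at 0.575 and Cars with Gars at 0.075. These correlations are descriptions without a test.

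Synthetase slopes were set beside the other parts of tRNA charging and of the amino acid response. In the scaffold, Aimp1 (0.00006), Aimp2 (-0.0323) and Eef1e1 (-0.0575) gave 0 calls of 3, and 12 further tRNA charging factors, such as Pstk and Qrsl1, gave 0 calls, with 0 at an unadjusted p under 0.05 in either list by limma. Of 18192 genes in all, 148 were called, 55 of them lower. Of 26 amino acid response genes, 6 were called, all lower, and 23 had a slope below 0 (median -0.069), against 51.5% of all genes. Over 17 other settings 1 to 6 were called, the 1 with Kcnj9 from female pools and these genes from male pools, and within strains 0 were called by limma. Chac1, which breaks down glutathione, had a slope of -0.263 (adjusted p = 4.4e-05). Atf4 itself had -0.284 (adjusted p = 0.000395) and Mthfd2, a mitochondrial folate enzyme, -0.119 (adjusted p = 0.000753). Slc7a1, a carrier of cationic amino acids, had -0.163, Asns, asparagine synthetase, -0.202, and Psph, the last enzyme of serine synthesis, -0.157 (limma adjusted p 0.00899, 0.0408 and 0.0482). Trib3 (-0.031), Sesn2 (-0.006) and Cebpg (-0.009) did not pass, and Ddit4 (0.110), Slc38a2 (0.049) and Ddit3 (0.038) lay above 0 without passing.

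**Figure D3:**
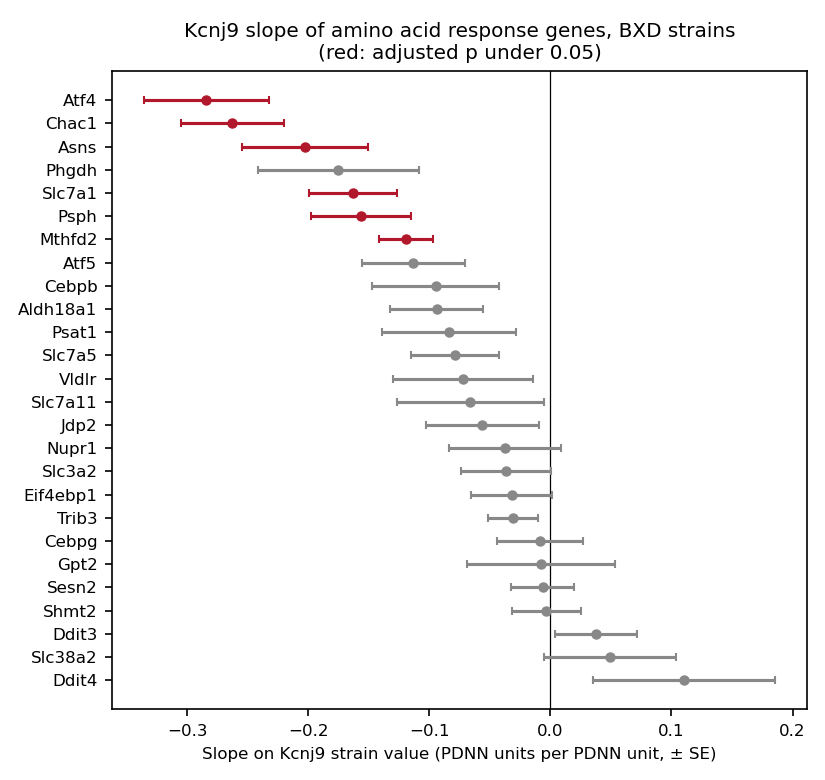
Slope of 26 amino acid response genes on the Kcnj9 strain value over 68 BXD strains (horizontal axis, PDNN units per PDNN unit, bars ± SE). The 6 genes in red pass the adjusted threshold, and 23 of 26 lie below 0, from -0.284 for Atf4 upward.

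Markers of some other cells also fell as Kcnj9 rose, where 51.5% of 18192 genes had a slope below 0. All 11 choroid plexus markers had a negative slope at an unadjusted p under 0.05 and 0 were called, with a median slope of -0.399 and -1.05 for Ttr, the plexus transport protein. Their mean ran from 7.858 to 9.277 PDNN units over strains. All 10 oligodendrocyte markers had a negative slope, 6 of them at an unadjusted p under 0.05, and 0 were called, with a median of -0.145. Of the 10 neuron markers, 6 had a slope above 0 (median 0.027), and 1 was called lower, Bok at -0.310. Astrocyte markers were split, with 5 of 10 below 0. Of the thalamus markers 7 of 10 lay above 0, and 1 was called higher. Of the microglia markers 7 of 10 and of the endothelial markers 8 of 8 lay below 0, with 0 called. With the choroid plexus mean as a covariate, the slope was -0.1502 for Yars (limma, adjusted p = 0.0318) and -0.1839 for Cars (adjusted p = 0.0107). Without it the slopes were -0.1398 and -0.1571. That mean correlated with Kcnj9 at r = -0.291 over strains, and a mean of markers does not measure plexus content itself. The parts of choroid plexus and oligodendrocyte content in these slopes were not tested.

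The calls for Yars and Cars lay close to the threshold. Leaving out each of the 68 strains in turn kept both slopes negative, from -0.1505 to -0.1285 for Yars and from -0.1695 to -0.1478 for Cars. Yars missed the threshold without any of BXD28, BXD39, BXD51, BXD63, BXD70, BXD79 or BXD99 (adjusted p up to 0.0672), and Cars missed it in 21 of 68 cases (up to 0.0710), so that 0 to 2 members were called. With Kcnj9 taken from female pools and synthetases from male pools of the same 62 strains, which share no array, the slope was -0.0781 for Yars and -0.1795 for Cars, and with the sexes exchanged -0.1541 and -0.1236. None of these 4 values passed (adjusted p 0.149 to 0.945). Between arrays of the same strain, the slope on Kcnj9 was -0.0848 for Yars and 0.0799 for Cars (0 members and 0 of all probe sets called, adjusted p 0.838 and 0.840 by limma), and only 2 of 19 cytosolic slopes were below 0.

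Other genes of distal chromosome 1 gave the same picture of direction. Of 10 neighbours with a strain effect of their own, all gave slopes for Yars, Cars and Gars of the sign opposite to that neighbour's correlation with Kcnj9 (absolute r 0.528 to 0.800). They share the strains and the synthetase values and correlate with Kcnj9, so these signs are not independent of the Kcnj9 slope. Yars was called with 6 of the neighbours, Cars with 9 and Gars with 3. Ackr1 gave 13 calls among synthetase probe sets (1.23% of all probe sets called), Pex19 gave 4 (0.617%), Adamts4 gave 4 (1.09%), Nit1 gave 3 (0.351%), and Vangl2 and Fmn2 gave 2 each (0.338% and 0.513%). Sdhc gave 5 (4.34%) and Ppox gave 27 (21.7%), covariates with which many other probe sets moved. Kcnj10 gave 1 (0.571%), the Cars probe set, and Fcer1g gave 0 (2.32%). Of 10 markers elsewhere in the genome, none gave a call for Yars, Cars or Gars. Their absolute r with Kcnj9 was 0.001 to 0.222. Slopes had the sign opposite to that correlation with 7 of these markers for Yars, 8 for Cars and 7 for Gars. Among those, Glo1 gave 3 other members (2.92%), Prdx2 gave Farsa (0.162%), Nnt gave 12 others (14.6%), and the other 7 gave 0 beside few calls in all: Gabra2 (0.0333%), Alad (0.335%), Pam (0.091%), Pttg1 (0.0622%), Cap1 (0.0933%), Phgdh (0.153%) and Gpnmb (0.0222%).

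Yars and Gars were also called with each of the other 3 Kcnj9 probe sets, and Cars with 1 of them. The first, whose strain values correlated with the main one at r = -0.408, gave slopes of 0.3544 for Yars (adjusted p = 7.498e-05) and 0.4388 for Cars (adjusted p = 6.399e-06), with 14 members and 2.37% of all probe sets called. The second, at r = 0.56, gave -0.2204 for Yars (adjusted p = 0.0186) and -0.0804 for Cars (adjusted p = 0.549), the direction seen with the main probe set, with 21 members and 19.1% of all probe sets called. The third, at r = 0.02, gave -0.4214 for Yars (adjusted p = 0.0104) and 0.2631 for Cars (adjusted p = 0.188), with 35 members and 48.3% of all probe sets called. Neither the second nor the third had a called strain effect of its own (limma F-test, adjusted p = 0.626 and 0.579), which the neighbours above were required to have. The first had one (limma F-test, adjusted p = 1.5e-06).

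The relation was not seen in the CXB panel, in which Kcnj9 lay between 8.103 and 8.361 in 8 strains and between 8.707 and 8.836 PDNN units in 5. No synthetase was called there by limma, and 0 of 72 reached an unadjusted p under 0.05, against 8 calls (0.0178%) and 562 unadjusted (1.25%) among all probe sets. Yars had a slope of 0.0307 and Cars of 0.0266, and 15 of 19 cytosolic genes were above 0 (median 0.037), while 12 of 16 mitochondrial genes were below 0 (median -0.013), as were 56.2% of 18192 genes. All 26 amino acid response genes missed the threshold, with 19 above 0. The CXB slope minus the BXD slope was 0.1705 ± 0.0776 for Yars and 0.1837 ± 0.0876 for Cars (unadjusted p 0.0309 and 0.0391, adjusted p = 1.00 by limma), in a test added after the slopes were seen that called 0 members and 7 of all probe sets (0.0155%, and 2.58% unadjusted). Within the BXD panel, the slope of Yars was -0.1437 in later and -0.1333 in earlier strains, and that of Cars -0.0961 in later and -0.2726 in earlier strains. The later minus earlier difference gave 0 calls among synthetases and among all probe sets (0%). By limma without adjustment, 6.77% of all probe sets and 5 of 72 synthetase probe sets passed 0.05. Cars was among them, with a difference of 0.1765 over 68 strains.

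The second question was which synthetases differ from strain to strain at all. In the F-test over 133 BXD arrays, 5 synthetase probe sets were called, beside 8.38% of all probe sets. Unadjusted, 20 passed 0.05, against 17.6% of all. The called ones belong to Wars, the tryptophanyl enzyme (1 of its 4 probe sets), to the mitochondrial phenylalanyl enzyme Fars2 (both probe sets), to the mitochondrial valyl enzyme Vars2 (the dimmer probe set) and to Cars. The share of variance between strains, as an intraclass correlation, was 0.910 for Wars, 0.730 and 0.445 for Fars2, 0.644 for Vars2 and 0.381 for Cars (adjusted p 9.608e-24, 2.954e-10, 0.0013, 4.275e-07 and 0.0123).

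The called Wars probe set, named the variable one here, fell into separate groups of BXD strains. It stood between 7.870 and 8.125 PDNN units in 35 strains and between 8.424 and 8.984 in 33 strains, with a gap of 0.299 between them, and the ends were BXD73a and BXD45. All 13 CXB strains lay in the upper range, from 8.478 to 8.775. Among classical strains, A/J, AKR/J, C3H/HeJ, DBA/2J, KK/HIJ and NOD/LtJ lay between 7.995 and 8.197, and the other 7 between 8.654 and 8.808. The remaining Wars probe sets did not show this: the brightest correlated with the variable one at r = 0.2 over strains and was not called (intraclass correlation 0.275, adjusted p = 0.124), nor were the other two (0.305 and -0.012, adjusted p = 0.0824 and 0.712). The level of Wars transcript as a whole therefore cannot be read from the variable probe set alone.

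Fars2 ran from 8.454 in BXD31 through a median of 8.751 to 8.940 in BXD2, and its second probe set, which was also lowest in BXD31, correlated with the first at r = 0.760. The called Vars2 probe set ran from 7.895 in BXD64 through 8.047 to 8.220 in BXD73, while the brighter Vars2 probe set was not called (intraclass correlation 0.089) and correlated with it at r = 0.061. In the CXB panel 0 synthetase probe sets were called in the F-test by limma, against 1.09% of all probe sets (7.98% unadjusted). Over all genes with several probe sets, the median correlation of the brightest with another was 0.272 (37 pairs, 9 of them below 0).

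**Figure D4:**
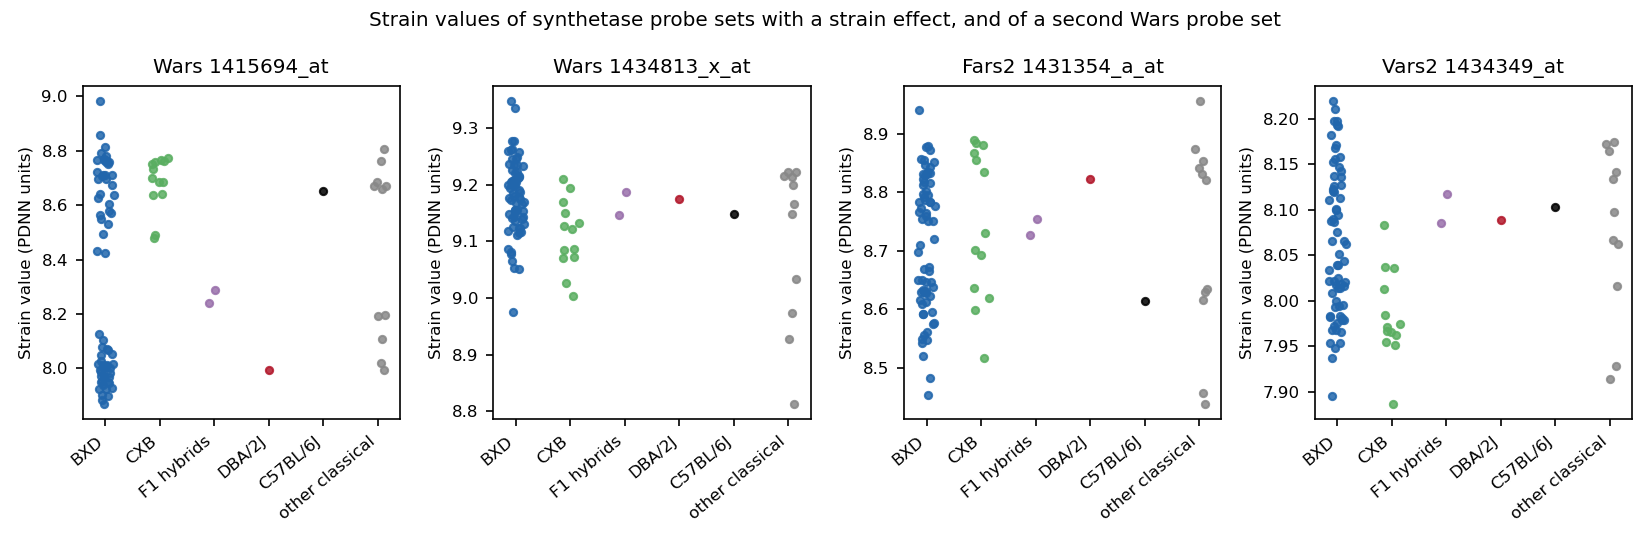
Strain values (PDNN units, vertical axes) of the variable and the brightest Wars probe sets, the brighter Fars2 probe set and the called Vars2 probe set, 1 point per strain, for BXD, CXB, F1 hybrids, DBA/2J, C57BL/6J and the other classical strains. The variable Wars probe set splits BXD strains into 35 low and 33 high with the F1 hybrids between DBA/2J and C57BL/6J, which the other Wars probe set does not show.

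The parents were compared directly, since they carry both alleles that segregate in BXD strains. The DBA/2J arrays were all of female pools, while C57BL/6J had female and male pools. The fit carried a sex term estimated over all strains. Its p-values used the spread left over all 199 columns (92 residual degrees of freedom), not that of the parental arrays alone. Relative to C57BL/6J, DBA/2J was lower at the variable Wars probe set and higher at Eprs, the glutamyl-prolyl enzyme, and at Hars: 4 of 72 probe sets were called, 1 lower and 3 higher, beside 7.24% of all probe sets (2.63% lower, 4.61% higher). Unadjusted, 10 of 72 passed 0.05, against 17.3% of all probe sets. With the spread of inbred strains and F1 hybrids alone, only the call of the variable Wars probe set stayed. Kcnj9 stood at 8.912 and 8.802 in DBA/2J, against 8.218, 8.093 and 8.302 in C57BL/6J.

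The variable Wars probe set stood at 7.982 and 7.753 PDNN units on the DBA/2J arrays, against 8.587, 8.401 and 8.610 on the C57BL/6J arrays, which do not overlap. The fitted difference was -0.658 (n = 2 and 3 arrays, limma, adjusted p = 3.6e-05). The F1 hybrids lay between, at 8.139, 8.285 and 8.188 in B6D2F1 and 8.007, 8.234 and 8.199 in D2B6F1, where 8.285 and 8.188 are repeat runs of the same male sample.

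Eprs stood at 8.948 and 8.877 on DBA/2J arrays, against 8.612, 8.686 and 8.550 on C57BL/6J arrays, a fitted difference of 0.368 (limma, adjusted p = 0.0095). A second Eprs probe set differed by 0.253 (adjusted p = 0.0381). Hars stood at 9.910 and 9.795 on DBA/2J arrays, against 9.452, 9.615 and 9.408 on C57BL/6J arrays, a fitted difference of 0.364 (limma, adjusted p = 0.0152). At these brightest probe sets every DBA/2J array was above every C57BL/6J array. The second Eprs probe set showed this too, at 8.676 and 8.742 in DBA/2J against 8.527, 8.66 and 8.442 in C57BL/6J. The remaining probe sets of these genes did not. Another Eprs probe set stood at 8.833 and 8.700 in DBA/2J, against 8.746, 9.015 and 8.588 in C57BL/6J (difference -0.0734, limma, adjusted p = 0.808), and the dimmest differed by 0.0677 (adjusted p = 0.738). The second Hars probe set stood at 9.254 and 9.177 in DBA/2J, against 9.091, 9.205 and 9.122 in C57BL/6J, which overlap (difference 0.0679, limma, adjusted p = 0.795). Across BXD strains neither had a called strain effect (adjusted p = 0.771 for Eprs and 0.205 for Hars).

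Only Wars kept its call without each parental array in turn. The brightest Eprs probe set and Hars missed the threshold without the first DBA/2J array (differences of 0.2558 and 0.2705, adjusted p = 0.308 and 0.302) and without the third C57BL/6J array (0.3218 and 0.2942, adjusted p = 0.0649 and 0.127). Yars stood at 8.613 and 8.275 in DBA/2J, against 8.503, 8.646 and 8.483 in C57BL/6J, and Cars at 8.165 and 8.068, against 8.158, 8.208 and 8.232. These parental levels overlap, and neither gene was called; the difference for Cars was -0.104 (limma, adjusted p = 0.657). Of the amino acid response genes 2 were called lower in DBA/2J, Atf4 at -0.361 (adjusted p = 0.00124) and Phgdh, the first enzyme of serine synthesis, at -0.392 (adjusted p = 0.00913), and 24 of 26 differences were below 0, against 62.4% of 18193 genes. Without each parental array in turn, 0 to 4 of these genes were called, 0 without the first DBA/2J array. Phgdh also served above as a marker elsewhere in the genome, and its probe set used there had an intraclass correlation of 0.967 over BXD strains. Among all genes, 1041 of 18193 were called between the parents, 563 of them lower in DBA/2J. Of the oligodendrocyte markers 8 of 10 were called lower in DBA/2J, and all 10 were below 0 (median -0.560). Of the endothelial markers 2 of 8 were called lower, and of the choroid plexus markers 10 of 11 were below 0 with 0 called. Their part in these differences was not tested.

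Wild-derived strains were set against classical strains over strain values. CAST/EiJ was measured on 1 array, which had the lowest share of probe sets called present among the wild-derived arrays (45.5%). Lars2, the mitochondrial leucyl enzyme, and Hars were called lower in wild-derived strains at 1 probe set each. These were 2 of 72 probe sets, beside 3.9% of all probe sets called (1.99% lower). Sequence variants under probes can change the signal of distant strains, and whether they did so here was not tested. Per the labels, arrays of CAST/EiJ, PWD/PhJ and PWK/PhJ had a high RMA outlier share. Without arrays of a high outlier share, Lars2 kept its call and Hars lost it. Markers of some other cells were lower too: all 11 choroid plexus markers (2 called, median -0.248), all 10 oligodendrocyte markers (1 called, median -0.288), 8 of 10 astrocyte markers (2 called) and all 8 endothelial markers (0 called, 4 unadjusted) were below 0, against 39.4% of 18193 genes. Microglia and thalamus markers were split, with 6 and 5 of 10 below 0. The part of these cells in the synthetase differences was not tested.

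The brightest Lars2 probe set stood at 7.902 in CAST/EiJ, 7.709 in PWD/PhJ, 7.807 in PWK/PhJ and 7.795 PDNN units in WSB/EiJ, against 7.855 to 8.239 (median 8.170) in 13 classical strains. Only 129S1/SvImJ, the lowest classical strain, overlapped the wild-derived values. The difference was -0.346 (means 7.804 ± 0.079 and 8.149 ± 0.100, SD, n = 4 and 13 strains, limma, adjusted p = 0.00295). Another Lars2 probe set disagreed: it averaged 7.931 ± 0.078 in wild-derived and 7.808 ± 0.068 in classical strains (difference 0.124, adjusted p = 0.0774). The third Lars2 probe set went the way of the brightest, at 7.869 ± 0.034 in wild-derived and 7.948 ± 0.06 in classical strains (SD), and was not called.

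Hars averaged 9.408 ± 0.341 in wild-derived and 9.817 ± 0.160 in classical strains (SD, n = 4 and 13, difference -0.409, limma, adjusted p = 0.0486). PWD/PhJ at 9.010 and PWK/PhJ at 9.252 lay below every classical strain, and CAST/EiJ at 9.602 and WSB/EiJ at 9.768 lay among them. Without PWD/PhJ the difference was -0.2765 (adjusted p = 0.223), without PWK/PhJ -0.3571 (0.0806) and without CAST/EiJ -0.4737 (0.0642), so this call rested on single strains. The second Hars probe set went the other way without passing, at 9.305 ± 0.148 in wild-derived and 9.254 ± 0.103 in classical strains (SD, n = 4 and 13, difference 0.0511, limma, adjusted p = 0.628).

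**Figure D5:**
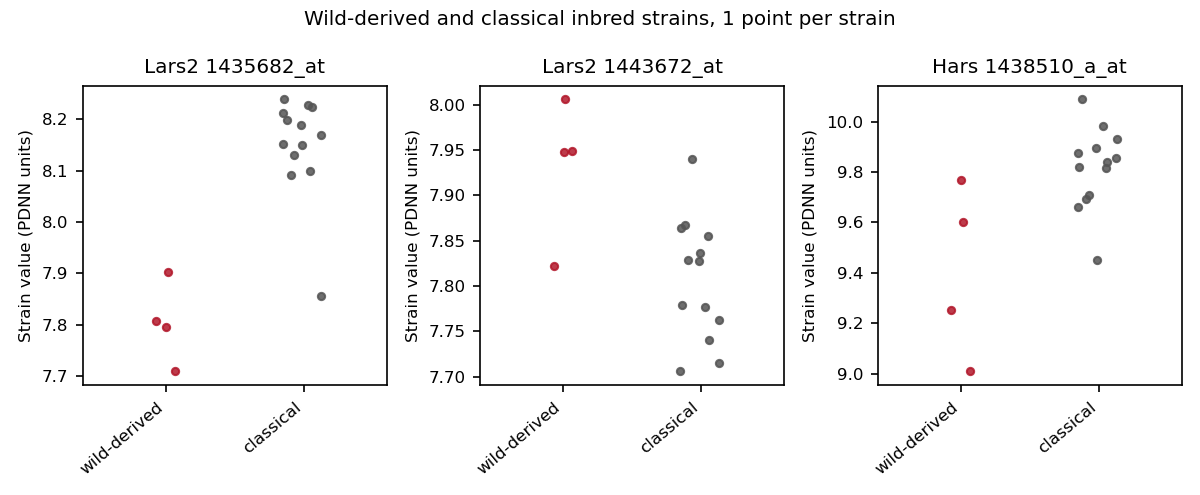
Strain values (PDNN units, vertical axes) of 2 Lars2 probe sets and the brightest Hars probe set in 4 wild-derived strains (left) and 13 classical inbred strains (right), 1 point per strain. The brightest Lars2 probe set is lower in the wild-derived strains (7.709 to 7.902) and the other Lars2 probe set shown is not, while Hars spreads widely among the wild-derived strains.

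Male and female pools showed no called difference at any synthetase by limma, beside 53 of 45037 probe sets (0.118%). At an unadjusted p under 0.05, 4 synthetase probe sets were found, 3 lower and 1 higher in males, against 4.15% of all. The lower ones were Vars, the cytosolic valyl enzyme (-0.0346), and 2 probe sets of Wars (-0.0426 and -0.0539), and the higher one was a dim probe set of Farsb, a subunit of the phenylalanyl enzyme (0.0160).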

How the data were processed

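The authors deposited 3 summaries of the same arrays. The PDNN values, used throughout, are scores on a log-like scale of unstated base that equal those of the deposited series matrix. The MAS5 and RMA scores, which per their values were scaled by the authors to a mean of 8 and SD of 2 per array, served as alternatives; 4 RMA columns, headed C57BL/6J or BXD14, whose values did not match their own arrays were not used. A first fit with limma 3.58.1 (R 4.3.3) had strain, sex and batch (7 batches per the labels) over 199 columns, with a technical duplicate averaged and the array of both sexes left out; 64 control probe sets were removed. Slopes and panel differences were fitted to strain values, with Benjamini-Hochberg adjustment over all probe sets and a threshold of 0.05. Residual degrees of freedom were 92. The number of arrays, not depth, limits precision. P-values measure the spread between pools or strains. Compartments and enzyme names came from general knowledge. Gene symbols came from the platform annotation and all 72 probe sets matched RefSeq. Members, lists, tests and the chromosome 1 relation were chosen with earlier results of these data known. Genes given in full were those called at their brightest probe set in the BXD slope, then up to 5 called in each other comparison, plus disagreeing probe sets; every member gene is named once. Scripts were tested on simulated data. The alternatives were the summary method, scaling, a mean filter, batch, age and quality terms, doubtful arrays, subsets of strains, other covariates and single samples left out.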

Additional observations from a re-analysis of the deposited data

Results flagged for a closer look

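Among the 4 wild-derived strains, the gap between the most distant strain and the next was tested for each of the 72 synthetase probe sets. Chance alone singles out about 1 in 20 such groups, and 2 were found. The dimmer Cars probe set stood at 7.755 PDNN units in CAST/EiJ, against 7.833 to 7.836 in the other wild-derived strains. The CAST/EiJ value rests on 1 array. A Tars probe set stood at 8.503 in WSB/EiJ, against 8.689 to 8.718 in the other wild-derived strains.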

How the results depend on the processing

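The call count for the slope on Kcnj9 (2 synthetase probe sets) moved most. It was 1 with MAS5 values (Gars), 5 with RMA values, 6 after quantile normalization, and 1 without the batch term, without arrays of a high RMA outlier share, or with sister substrains averaged. It was 0 in earlier or later strains alone, with Kcnj9 from the pools of the other sex (either way), and within strains, where the Cars slope turned to 0.0799. In place of Kcnj9, its other probe sets gave 14, 21 and 35, Sdhc 5, Adamts4 and Pex19 4 each, Ppox 27, Ackr1 13, Nnt 12, Kcnj10 and Prdx2 1 each, and Fcer1g, Gabra2, Alad, Pam, Pttg1, Cap1, Phgdh and Gpnmb 0. The BXD strain effect (5) gave 13 after quantile normalization. DBA/2J minus C57BL/6J (4) gave 2 without the batch term and 1 with the spread of inbred strains and F1 hybrids alone. Wild-derived minus classical (2) gave 1 after quantile normalization, without the batch term, or without arrays of a high outlier share. Leaving out single strains or arrays gave 0 to 2 for the Kcnj9 slope (0 without BXD28, BXD51 or BXD70), 5 to 7 for the BXD strain effect over 20 arrays, 0 to 1 for the CXB strain effect (1, Fars2, without the third CXB5 array), 2 to 5 for DBA/2J minus C57BL/6J and 1 to 3 for wild-derived minus classical. The causes of these moves were not tested. No paired analysis was possible because replicate numbers name arrays within a strain and mark no shared animal, day or batch.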
